A study of Danio rerio with 4 samples.

Results

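The regions described here are 1 kb windows of the zebrafish genome whose DNA methylation at 24 hours post-fertilization (hpf) was lower than at 2, 4 and 8 hpf. They number 825 of the 1024982 windows that could be compared at all stages, or 0.0805%. A window was taken where its methylation at 24 hpf lay at least 25 percentage points below the lowest of the earlier stages and where 8 hpf lay within 15 points of the mean of 2 and 4 hpf. No limit was set between 2 and 4 hpf. Of the 848 windows (0.0827%) with the first property, 23 were left out by the second. The windows were thus selected on their measured levels at the 4 stages, and the loss itself is given as a description, with no test. For comparison, 858 windows (0.0837%) lay at least 25 points above every earlier stage at 24 hpf. A window over 75% at an earlier stage could not meet this limit.

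The study made methylomes of whole embryos by bisulfite sequencing, with 1 library each at 2 hpf (cleavage), 4 hpf (dome), 8 hpf (gastrula) and 24 hpf (organ formation). The labels name no strain or treatment and do not say how many embryos were pooled. Bisulfite turns unmethylated cytosine into uracil and leaves methylated cytosine, and the methylation level is the share of reads that kept their cytosine at the CpGs of a window. A CpG was read by a median of 27, 19, 6 and 10 reads in the libraries of 2, 4, 8 and 24 hpf. At most 0.853% of mitochondrial reads were methylated in any library, an upper limit on incomplete conversion of mitochondrial DNA. Conversion of nuclear DNA was not measured here. As no stage has a replicate, the spread between embryos is unknown, and the 95% Wilson intervals given for single windows cover counting error only. They are too narrow where 1 read crosses several CpGs.

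In vertebrates most CpGs are methylated, and the mark is copied to the new strand by Dnmt1 at each replication. It is lost where copying lags behind cell division or where Tet enzymes oxidize 5-methylcytosine. Promoters rich in CpGs are usually free of methylation from the start, whereas distal enhancers often lose it later, in the cell types that use them. In contrast to mammals, the zebrafish embryo passes through no genome-wide erasure after fertilization.

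Most of the windows were highly methylated before 24 hpf, as were windows in general. The lower quartile of members was 85.2%, 86.1% and 85.3% at 2, 4 and 8 hpf, against 87.3%, 87.1% and 86.8% in all windows. A total of 730 members had a mean level over 75% at the 3 earlier stages, and 297 of the 825 were over 95%, as were 299779 of all 1024982 windows. The 730 windows had median levels of 93.2%, 94.4% and 94.3% at the 3 earlier stages in turn and 61.0% at 24 hpf, when the middle 50% of windows lay between 53.6% and 65.6%. None of them reached a level under 25%. The other 95 windows were partly methylated from the start, with medians of 66.1%, 66.8% and 65.7% until 8 hpf and 32.1% at 24 hpf. Members made up 0.241% of windows that started at 50 to 60% and 0.215% at 60 to 70%, against 0.0625% at 90 to 95% and 0.0991% over 95%. Counting error is largest at intermediate levels, and its part in these shares was not tested. The 95 windows had a median of 79 reads at 8 hpf and 107 at 24 hpf, against 120 and 143 in the 730. All 30 windows that ended under 25% belonged to the smaller set of 95. Over all windows that passed the filters the medians were 92.4%, 92.4% and 92.8% until 8 hpf and 89.4% at 24 hpf, and the median difference between 24 hpf and the mean of the earlier stages was -2.54 points. The embryos were sequenced whole. An intermediate level can stand for a loss in part of the cells or for a partial loss in all of them, and these cannot be told apart.

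**Figure D1:**
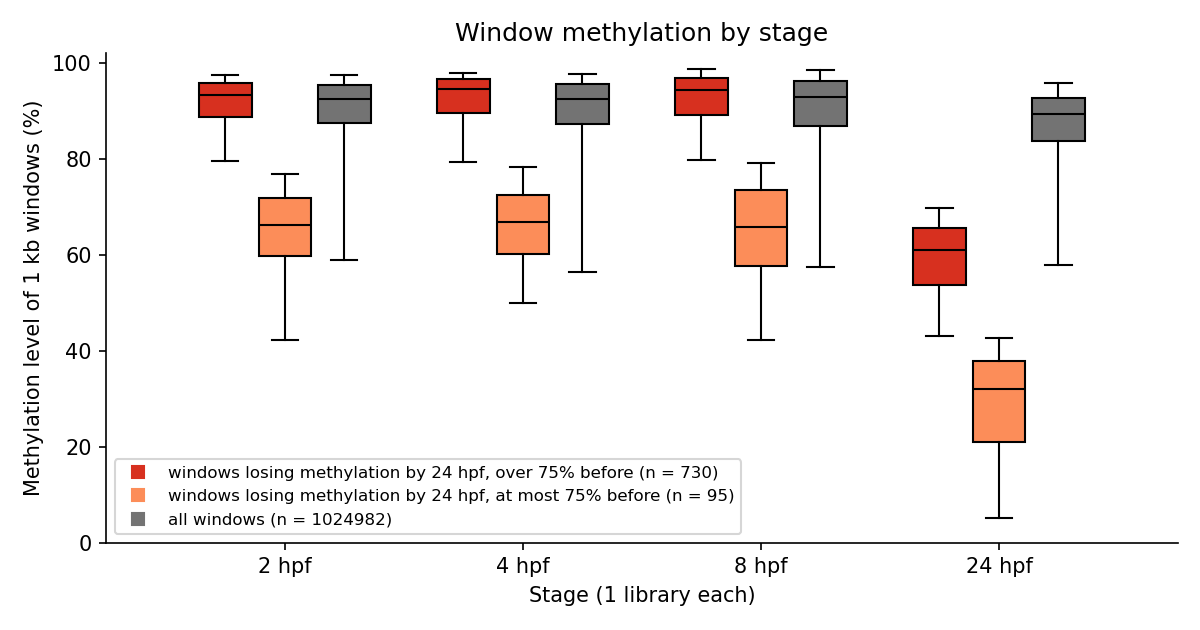
Methylation level (%) of 1 kb windows at each stage, 1 library per stage. Boxes give the median and the middle 50% of windows, and whiskers the 5th and 95th percentiles, for the 730 windows that lose methylation by 24 hpf from over 75%, the 95 that lose it from at most 75%, and all 1024982 windows. The first set sits beside all windows until 8 hpf and has a median of 61.0% at 24 hpf, against 89.4% in all windows.

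The losses were mostly moderate. Between 24 hpf and the lowest earlier stage the median change was -28.9 points, with the middle 50% between -32.8 and -26.8 points. A loss of at least 30 points was found in 337 windows, of at least 40 points in 68 and of at least 50 points in 14. The limit of 25 points cuts through a continuous range. Just inside it, the window on chromosome 19 from 33686001 to 33687000 had 68.6% at 24 hpf and 93.6% at its lowest earlier stage, and that on chromosome 1 from 5721001 to 5722000 had 64.1% and 89.2%. The member on chromosome 11 from 35568001 to 35569000 had 52.2% at 24 hpf and 77.2% at 8 hpf, its lowest earlier stage. Just outside it, the window on chromosome 18 from 23872001 to 23873000 had 71.0% at 24 hpf and 96.0% at its lowest earlier stage, and that on chromosome 20 from 17792001 to 17793000 had 71.1% and 96.1%. On chromosome 9, the window from 10848001 to 10849000 had 49.3% at 24 hpf and 74.3% at 2 hpf, its lowest earlier stage. The lowest of the earlier levels was found at 2 hpf in 348 windows, at 4 hpf in 226 and at 8 hpf in 252, with 1 tie. The number of members moved with the filters. Where at least 80 reads were asked of every library, 524 (0.0629%) remained. Without the 8 hpf library, which also drops its part in the rule and adds windows to those compared, 1651 windows met the remaining conditions, including all 825. With all libraries thinned to the depth of 8 hpf the number was 764 (0.0811%), 542 of them among the 825.

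The 5 largest losses among the 431 windows with at least 100 reads in every library all started above 93%. The largest lies on chromosome 18 of the assembly Zv9, from 30252001 to 30253000, and holds 18 CpGs. At 2 hpf, 95.9% (94.5% to 96.9%) of 1020 reads over these CpGs were methylated. At 4 hpf the share was 97.9% (96.5% to 98.8%) of 675 reads and at 8 hpf 97.4% (94.7% to 98.7%) of 266. At 24 hpf only 25.3% (20.5% to 30.7%) of 281 reads were methylated. All 17 of its CpGs with at least 5 reads in every library were lower at 24 hpf, 15 of them by at least 25 points. From the CpG at 30252014 to that at 30252485, single CpGs had between 0% and 37.5% at 24 hpf, and none had less than 85.0% at any earlier stage. To the right of these the picture was mixed. The CpG at 30252508 kept 88.2% of 17 reads at 24 hpf, and that at 30252529 had 31.2% of 16. The last, at 30253000, kept all of its 4 reads. The CpGs with the strongest loss thus filled the left part of the window.

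The next windows in this order changed less. The window on chromosome 2 from 21602001 to 21603000 had 96.8%, 97.1% and 98.3% methylation until 8 hpf and 43.7% (38.4% to 49.2%) at 24 hpf, and 9 of its 10 CpGs with enough reads fell by at least 25 points. The window on chromosome 16 from 49306001 to 49307000 had 93.6%, 96.1% and 97.8% until 8 hpf and 41.3% (35.8% to 47.1%) at 24 hpf. That on chromosome 5 from 34154001 to 34155000 had 95.7%, 96.7% and 96.5% until 8 hpf and 44.4% (36.2% to 52.8%) at 24 hpf. In each of these the earlier intervals lay above that of 24 hpf, which follows from their choice as the largest losses. The last of the 5, on chromosome 11 from 19132001 to 19133000, had 97.0%, 96.6% and 95.8% until 8 hpf and 45.3% (40.8% to 49.9%) of 459 reads at 24 hpf, and every one of its 24 CpGs with enough reads was lower at 24 hpf.

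The lowest levels at 24 hpf were found in windows that had been partly methylated before. The window on chromosome 5 from 74224001 to 74225000 had 30.6% (26.0% to 35.6%) at 2 hpf and 49.4% (41.6% to 57.2%) at 4 hpf. Its level at 8 hpf was 36.4% (28.3% to 45.4%), and at 24 hpf it had 0 methylated of 141 reads, for which 3 counts would be 2.13% and the Wilson upper limit is 2.65%. The window on chromosome 6 from 48104001 to 48105000 had 46.0%, 30.2% and 49.6% until 8 hpf and 3.73% (1.72% to 7.89%) at 24 hpf. That on chromosome 8 from 52511001 to 52512000 had 35.6%, 61.2% and 38.1% until 8 hpf and 4.86% (2.80% to 8.30%) at 24 hpf. In each of these windows the interval at 4 hpf did not overlap that at 2 hpf. As each stage is a separate library, a change with stage and a difference between the embryos sampled cannot be told apart.

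**Figure D2:**
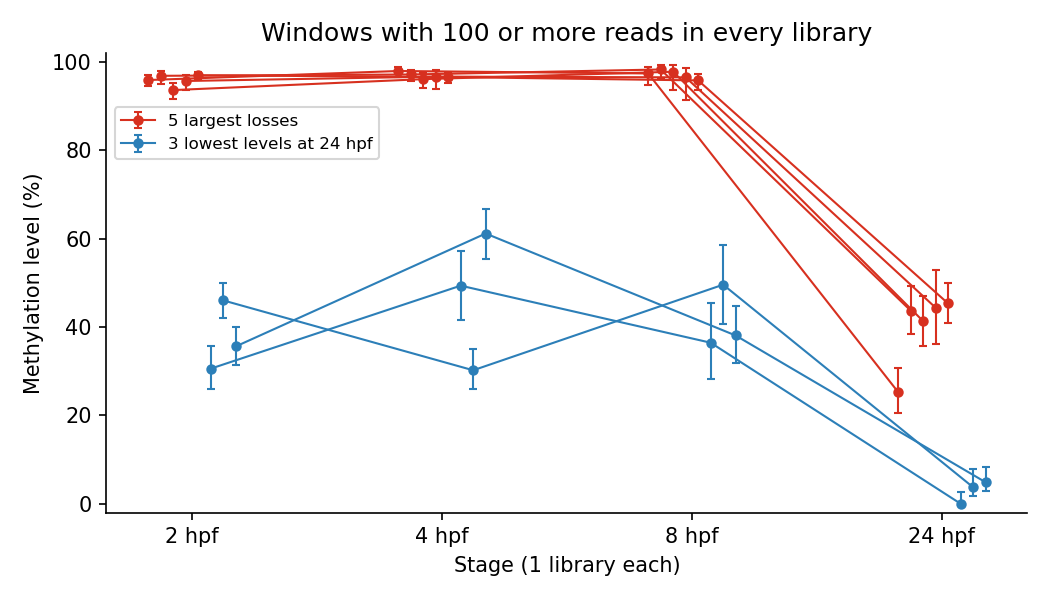
Methylation level (%) at each stage for the 5 windows with the largest loss and the 3 with the lowest level at 24 hpf, among those with at least 100 reads in every library. Bars are Wilson 95% intervals on reads and points are shifted sideways for legibility. The first set stays above 93% until 8 hpf and ends between 25.3% and 45.3%, and the second lies between 30.2% and 61.2% until 8 hpf and ends under 5%.

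Most members stood alone, yet members lay beside a member more often than windows in general did. In all, 31 of the 825 windows (3.76%) lay beside another member, against 0.118% of all windows. An adjacent window that passed the filters was present for 765 of the 825 members, and the members formed 809 separate runs, 794 of them of a single window. Windows within 1 kb that were not members themselves had a median difference from their earlier mean of -3.34 points, against -2.54 points in all windows. In 100 bp bins across the members, 52.7% to 61.8% of reads were methylated at 24 hpf inside the window, against 76.4% to 79.0% in the first bin beyond either edge and at least 80.5% further out, as far as 3 kb from the centre. The step at the edges partly follows from choosing windows on a fixed grid. A further profile was centred on single CpGs. In 796 windows, the CpG with the largest loss was picked among every other CpG, and only the CpGs between these were measured. At 24 hpf their level was 46.6% within 100 bp of the picked CpG, 60.8% at 100 to 200 bp, 68.6% at 300 to 400 bp, 77.5% at 500 to 600 bp and 83.7% at 800 to 900 bp. Relative to the mean of the earlier stages this was a change of -44.8 points within 100 bp, -20.9 points at 300 to 400 bp and -5.22 points at 800 to 900 bp. CpGs close together are read by the same fragments, so the measured CpGs are not independent of the picked ones. The decline with distance is also set in part by the choice of windows, since CpGs further away lie outside the window more often, and it gives no width free of the grid.

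**Figure D3:**
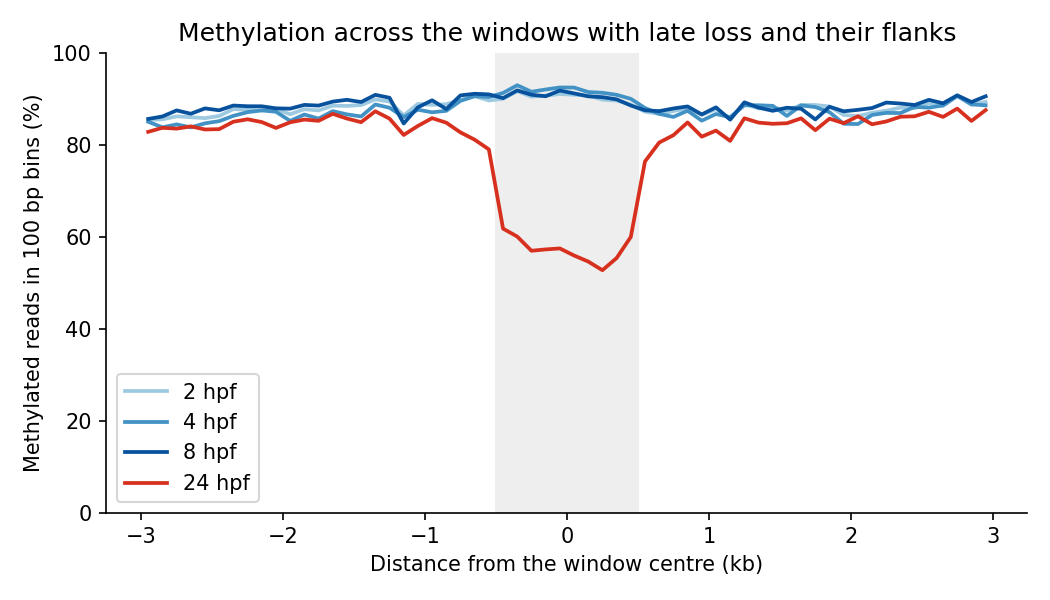
Share of methylated reads (%) in 100 bp bins by distance from the window centre (kb), pooled over the 825 windows, for the 4 stages. The grey band is the 1 kb window. The curves of 2, 4 and 8 hpf run together between 83.8% and 93.0%, and that of 24 hpf dips to 52.7% inside the band.

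The longest runs differ in kind. The only run of 3 members lies on chromosome 8 from 47496001 to 47499000. Before 24 hpf its windows had between 38.2% and 56.2%, and at 24 hpf they had between 11.9% and 13.4%. They belong to the partly methylated set. Chromosome 8 holds 12 of the 95 windows of that set, more than any other chromosome. It holds 43020 of all 1024982 windows and 50 members, the largest share of members on any chromosome (0.116%). The 12 include this run and the run from 52511001 to 52513000, so not all of them are separate places. The right window of the latter run had 44.9%, 70.1% and 49.5% until 8 hpf and 0 methylated of 73 reads at 24 hpf. For this, 3 counts would be 4.11% and the Wilson upper limit is 5.00%. By contrast, the run on chromosome 25 from 18794001 to 18796000 was highly methylated at first. Its left window had 95.9%, 95.7% and 97.1% until 8 hpf and 49.2% (44.7% to 53.8%) at 24 hpf, and its right window 95.8%, 96.1% and 97.6% until 8 hpf and 62.1% (54.0% to 69.6%) at 24 hpf.

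Single CpGs show how a window arrives at an intermediate level. The 825 windows hold 13548 CpGs, of which 7898 had at least 5 reads in all 4 libraries. Of these, 4081 (51.7%) were at least 25 points lower at 24 hpf than at any earlier stage, against 1.43% of the 13870319 CpGs covered in the same way genome-wide, and 3 were at least 25 points higher, against 0.353% genome-wide. The first share follows from the choice of the windows, and the second is set in part by it. A CpG over 75% at an earlier stage cannot rise by 25 points. What the rule did not set is how the loss is spread over the CpGs. In the windows that started over 75%, 58.6% of CpGs had between 25% and 75% at 24 hpf, against 5.29% at 8 hpf. A further 9.09% had less than 25% and 32.3% more than 75% at 24 hpf. Windows that were between 45% and 75% at every stage, 16646 in number, looked different, as only 25.8% of their CpGs lay between 25% and 75% at 24 hpf while 22.5% lay under 25% and 51.7% over 75%. Most CpGs of the windows with late loss from over 75% thus had an intermediate level themselves. By contrast, most CpGs of the windows with a constant intermediate level were either low or high. At about 10 reads per CpG, counting error widens both distributions. This comparison has no replicate and was not tested.

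Of the well covered CpGs of the members, 83.1% were lower at 24 hpf than at every earlier stage, against 37.0% genome-wide, a contrast that the rule itself sets. Among the 571 members with at least 6 well covered CpGs, a median of 53.8% of these CpGs fell by at least 25 points. At least 3 CpGs did so in 505 windows, and at most 1 did so in 39. Every well covered CpG was lower at 24 hpf in 110 windows. These counts, too, follow in part from the rule, and none were made for windows outside the set. In the windows that started at most 75% methylated, 52.3% of CpGs were under 25% at 24 hpf, against 14.1% at 8 hpf. A further 27.4% lay between 25% and 75% at 24 hpf and 20.2% over 75%. In this smaller set, most CpGs were thus low at 24 hpf. The rule sets this in part, as windows that started at most 75% methylated had to end at least 25 points lower.

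**Figure D4:**
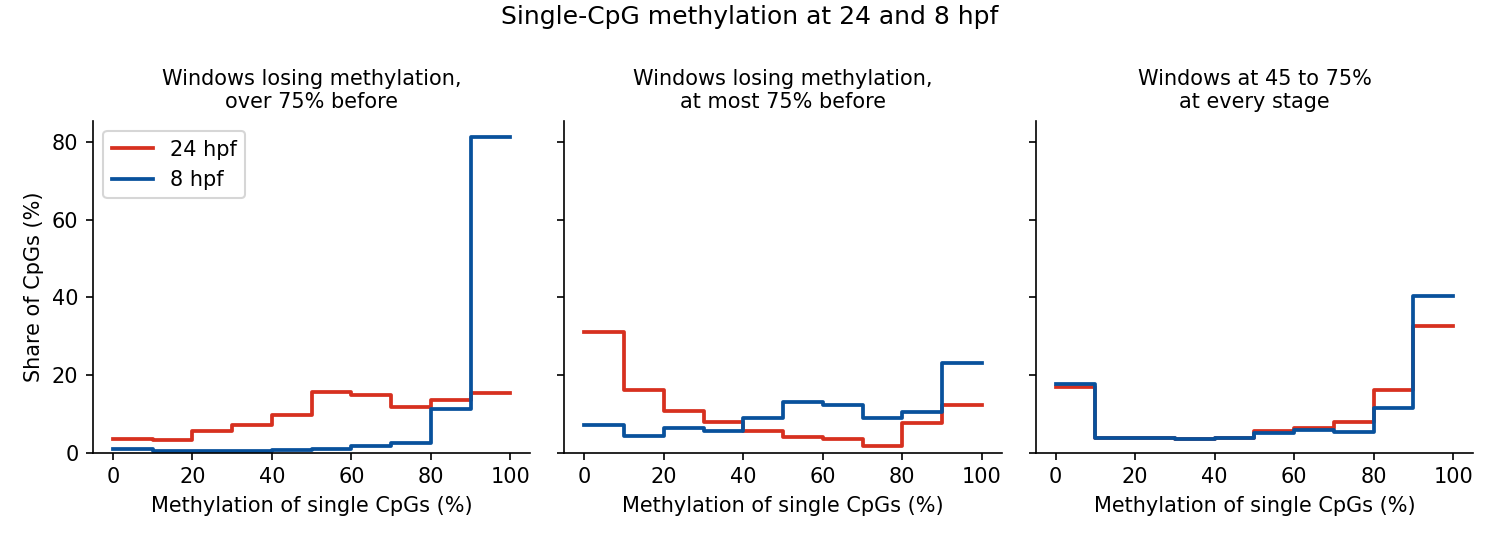
Distribution of the methylation (%) of single CpGs with at least 5 reads in every library, in 10-point classes, at 24 hpf (red) and 8 hpf (blue), as shares of CpGs (%). In windows that lose methylation from over 75%, 58.6% of CpGs lie between 25% and 75% at 24 hpf, while windows at 45 to 75% at every stage have 51.7% of CpGs over 75%.

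The windows were of ordinary to low CpG density. They held a median of 15 CpGs, against 17 in all windows, and the median was lower than that of all windows on 15 chromosomes, equal on 7 and higher on 3. The share of windows that were members was 0.108% at 6 to 9 CpGs, 0.0862% at 10 to 14, 0.0873% at 15 to 19, 0.0795% at 20 to 29, 0.0356% at 30 to 49 and 0.0176% at 50 or more. CpG-dense windows were thus seldom among them. Windows under 25% before 24 hpf could not meet the rule. With at least 80 reads in every library the medians were 17 CpGs in members and 18 in all windows. The member with the most CpGs, 65, lies on chromosome 9 from 16416001 to 16417000 and had 72.0%, 87.9% and 88.8% until 8 hpf and 45.8% (34.8% to 57.3%) of 72 reads at 24 hpf.

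Members were found on all 25 chromosomes. Their share of windows ranged from 0.0538% on chromosome 6, with 25 members, to 0.116% on chromosome 8, with 50, and chromosome 7 held the most, 64. In the outer 10% at each chromosome end the share was 0.0727%, against 0.0825% in the rest. With 1 library per stage these differences have no replicate check.

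Although most members did not touch another, other windows with a loss of at least 10 points were more frequent near them. A loss of at least 10 points below the lowest earlier stage was found in 2.42% of all windows and in 2.34% of the 1024157 windows outside the set. Of the windows outside the set, it was found in 11.9% of those within 1 kb of a member, 5.46% at 1 to 2 kb, 6.60% at 2 to 5 kb, 5.73% at 5 to 10 kb, 4.25% at 10 to 20 kb, 3.42% at 20 to 50 kb and 2.51% at 500 to 1000 kb. A window near several members was counted once for each. Within 1 kb the median difference of these windows from their earlier mean was -3.34 points. At 1 to 2, 2 to 5, 5 to 10 and 10 to 20 kb it was -2.41, -2.64, -2.49 and -2.38 points in turn. Over all windows outside the set it was -2.54 points. Beyond 1 kb the higher shares thus came from a minority of windows. Gains of at least 10 points were found in 0.62% of all windows. Their share was 0.253% within 1 kb (3 windows), 0.545% at 2 to 5 kb, 0.768% at 5 to 10 kb and 0.627% at 500 to 1000 kb. A window over 90% at an earlier stage cannot gain 10 points. Windows 1 kb to either side of a member had median levels between 91.3% and 92.8% at the earlier stages. The gains are therefore not a like comparison for the losses. In these distance classes, the windows outside the set had a median CpG number of 15 to 17. Their median coverage at 24 hpf was 1.37 to 1.43 times the library median. Over all windows outside the set the medians were 17 CpGs and 1.37 times, and within 1 kb of a member 15 and 1.41 times. The part of CpG number and coverage in the shares of losses was not tested. Members themselves made up 2.63% of windows within 1 kb of another member. At 10 to 20 kb their share was 0.462% and at 500 to 1000 kb 0.101%.

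**Figure D5:**
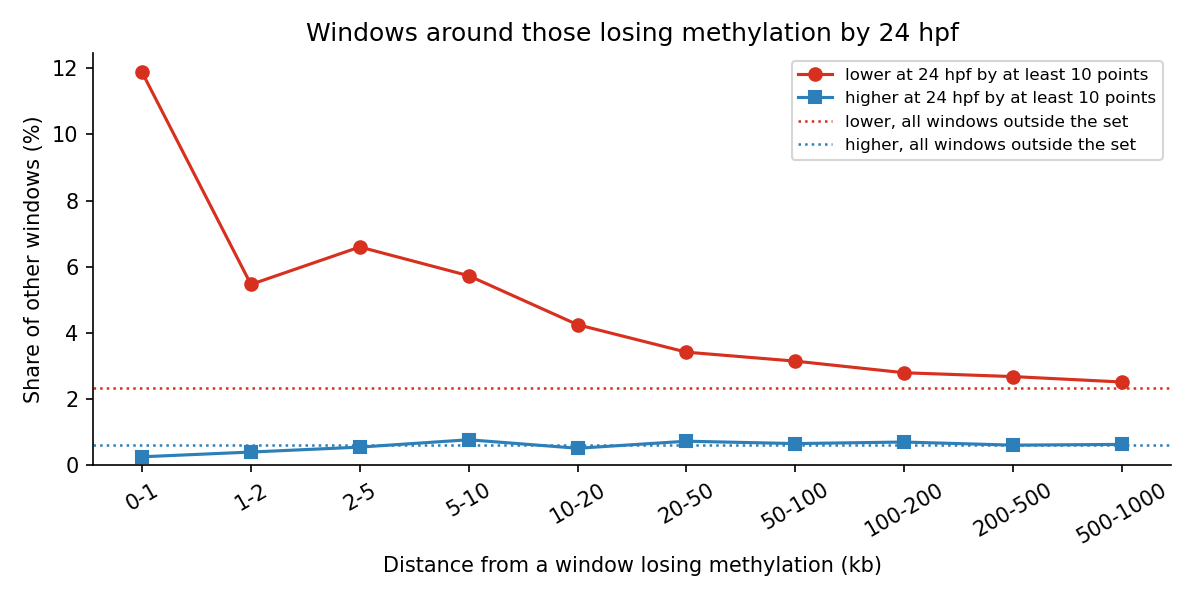
Share (%) of windows outside the set that were lower (red) or higher (blue) at 24 hpf by at least 10 points than every earlier stage, by distance from a member (kb, classes of unequal width). Dotted lines give the shares over all windows outside the set, 2.34% and 0.62%. The red share is 11.9% within 1 kb and 2.51% at 500 to 1000 kb, and the blue share stays under 0.8% throughout. A window over 90% at an earlier stage could not count as higher.

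Among fixed 100 kb intervals, the densest group, chosen after its values were seen, lies on chromosome 16 between 49306001 and 49342000. It holds 5 members, including the third largest loss described above. The window from 49308001 had 95.2%, 96.8% and 94.4% until 8 hpf and 54.1% (47.3% to 60.8%) at 24 hpf, and that from 49341001 had 93.9%, 95.6% and 97.5% until 8 hpf and 46.3% (37.8% to 55.1%) at 24 hpf. The remaining windows, from 49327001 and 49334001, had 68.4% and 65.1% at 24 hpf after at least 95% at every earlier stage. A further member, from 49293001 to 49294000, lies just to the left but falls in the neighbouring interval. It had 97.5% at 8 hpf and 72.1% at 24 hpf. Elsewhere, 637 intervals of 100 kb held a single member, 69 held 2 and 15 held 3.

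Members lay next to unmethylated sequence about as often as windows in general. A window under 25% at all 4 stages lay within 2 kb of 52 members (6.30%), against 5.19% of all windows that were not themselves unmethylated, and these shares were 24.2% and 22.6% within 10 kb. Within 2 kb it was 14 of the 95 partly methylated members (14.7%), against 38 of the 730 that started over 75% (5.21%). At larger distances the order turned, with 65.3% of the partly methylated members and 69.9% of the others within 50 kb, and 75.8% and 86.4% within 100 kb. Long unmethylated stretches, however, which in vertebrates often mark genes of developmental transcription factors, lay near members more often than near windows in general. There were 1321 runs of at least 3 adjacent unmethylated windows. Such a run lay within 10 kb of 4.61% of members, against 1.79% of all windows not themselves unmethylated, and within 50 kb of 134 members (16.2%), against 8.47%. At these distances the excess lay in the members that started over 75%, with 4.93% within 10 kb and 17.3% within 50 kb. The partly methylated members had 2.11% (2 of 95) and 8.42% (8 of 95). Within 2 kb the order was the reverse, with 1.10% of the members over 75% and 2.11% of the partly methylated, again 2 windows. The share within 50 kb was higher for members on 21 of 25 chromosomes. For the 446 runs of at least 5 windows, the shares within 50 kb were 7.52% and 2.77%. These distances were examined after the first results were known, and chromosomes of 1 library are not replicates.

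Of the 6 viewpoints for chromosome contact mapping in the study's primer table, which were taken as Zv9 positions and of which the study's text does not describe every one, a pair had a member within 5 kb, and 0.603% of all windows had a member that near. From the viewpoints sox5, meis1b, lmx1ba and barx1 the nearest member was 52.7, 161, 1418 and 1759 kb away. The 6 viewpoints were chosen by the study, and their nearness to members was not tested. At nfixb, named for a nuclear factor I transcription factor, the member is 1.9 kb away. It spans 14455001 to 14456000 of chromosome 3 and had 96.0%, 95.9% and 97.1% until 8 hpf and 69.6% (64.2% to 74.4%) at 24 hpf. At meis2a, named for a homeobox transcription factor, the member is 4.4 kb away. It spans 53460001 to 53461000 of chromosome 17 and had 96.4%, 97.7% and 94.0% until 8 hpf and 62.4% (53.0% to 70.9%) at 24 hpf. No gene was assigned to the other members, since no annotation of Zv9 was used, and no sequence is given for the same reason.

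Coverage of the members differed between libraries as well. In multiples of the library median, members were covered 1.23, 1.36, 1.45 and 1.06 times at 2, 4, 8 and 24 hpf, and all windows 1.23, 1.18, 1.51 and 1.37 times in the same order. At 24 hpf members thus had 0.776 times the coverage of all windows, and their median was the lower on all 25 chromosomes. The 27485 windows unmethylated at every stage were covered less than all windows at 24 hpf (0.567 times), at 8 hpf (0.679 times) and at 2 hpf (0.767 times), but not at 4 hpf (1.01 times). The part of coverage in the levels of the members was not tested. The 431 members with at least 100 reads in every library, which were chosen on coverage, had 1.21, 1.34, 1.17 and 0.946 times the coverage of all windows at 2, 4, 8 and 24 hpf, so that 24 hpf was again the lowest, and their median level was 62.5% at 24 hpf and 95.2% at 8 hpf.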

How the data were processed

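Whole-embryo DNA of 4 stages was bisulfite-sequenced, 1 library each, and mapped to Zv9 (danRer7) by the authors. Which aligner was used and whether duplicates were removed is not given in the sources used here. The deposited files list, per CpG with both strands joined, the coverage in reads and the methylated fraction of reads, which the authors wrote as 0 where no read was present. Fraction times coverage gave whole reads within 0.00124. Coverage summed over the 24222160 nuclear CpGs came to 693553384, 506486388, 194648540 and 299121963 reads for 2, 4, 8 and 24 hpf.

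Reads were pooled in 1 kb windows with at least 6 covered CpGs and 40 reads in every library and a mean coverage of at most 3 times the library median. Positions are counted from 1. Single CpGs needed 5 reads in every library. Windows were named by rule: the 5 largest losses and the 3 lowest levels at 24 hpf with at least 100 reads, the 3 longest runs (ties by mean loss), the most CpGs and those next to the limit. Members and lists were chosen with earlier results of these data known. The window rule was tested on simulated data. No test was made across stages. Alternatives changed the filters, the grid, the level, the depth and the libraries. Tables were handled with pandas 2.3.3 and numpy 2.4.6 under Python 3.11.15, intervals with scipy 1.17.1 and plots with matplotlib 3.10.9.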

Additional observations from a re-analysis of the deposited data

Results flagged for a closer look

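Windows with more than 3 times the median coverage in any library were set aside, and they were looked at here because the comparisons above do not use them. Among 63676 such windows, 105 met the same loss rule, which is 0.165%, against 0.0805% of the windows below the limit.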

How the results depend on the processing

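The 6 summary results were recomputed under 12 alternatives, of which leaving out an early library and averaging coverage over all CpGs were added after seeing the data. Of 72 values, 58 stayed within the 95% interval of the main value (counts of members within 1.5 times), and 14 moved. The intervals were taken over windows or CpGs as if independent, so they do not hold the spread between embryos. None of the 6 values can change sign under the rule, which says nothing on their comparison with all windows. The shares of all windows beside a member or near an unmethylated window were not recomputed. The number of members was 1620 with the mean of CpG fractions, 524 with at least 80 reads, 337 at a loss of 30 points and 1651 without the 8 hpf library. Of the 825 members, 516 remained with the mean of CpG fractions and 542 after thinning to the depth of 8 hpf, which called 764. The cause was not tested. The median change was -29.3 points with the mean of fractions and -34.1 at 30 points. The median number of CpGs was 17 with at least 10 CpGs and also with at least 80 reads. The share beside another member was 2.41% with the mean of fractions. The share of member CpGs at least 25 points lower was 39.4% with the mean of fractions, 53.4% with 80 reads, 50.5% after thinning, 60.0% at 30 points and 44.6% without 8 hpf. No paired analysis was possible because each stage has 1 library, and for the same reason no replicate could be left out. The 8 hpf library, with a median of 6 reads per CpG, limits which windows can be compared.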

Other observations

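The same limit of 25 points was applied with each stage in turn as the one apart from the others. At 2 hpf 19 windows lay below and 21 above all other stages, at 4 hpf 607 below and 85 above, at 8 hpf 181 below and 161 above, and at 24 hpf 848 below and 858 above. The numbers of losses and gains were thus about equal at 24 hpf at this size. At 10 points 24797 windows were lower and 6354 higher at 24 hpf. These counts do not compare like with like. A window near full methylation at another stage cannot rise by 25 points, or by 10. The lower quartile of all windows was 87.3%, 87.1% and 86.8% at 2, 4 and 8 hpf, which leaves no room for a gain of 25 points in most of them.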
